A study of Mus musculus with 2 samples.

Results

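The genes described here are the ligands, receptors and binding proteins of the insulin-like growth factor (IGF) system in cultured intestinal subepithelial myofibroblasts (ISEMFs), the contractile fibroblast-like cells that lie under the intestinal epithelium. They were taken by gene symbol, and all 10 listed symbols (Igf1, Igf2, Igf1r, Igf2r and Igfbp2 to Igfbp7) were found once each among the 37309 genes of the deposited table. RNA was sequenced from 1 library of supportive ISEMFs, which the study describes as neonatal, and 1 library of non-supportive ISEMFs, described as adult. Both cultures came from the small intestine of wild type C57BL/6 mice, which the study's methods give as 5 days old for neonatal and 2 months old for adult isolations. The supportive cells were those that sustained growth of intestinal crypts without added R-spondin, and the comparison asks which transcripts differed between them and cells that did so only weakly. Both populations were grown in medium with serum, transferrin, epidermal growth factor and insulin, and the methods state neither the number of mice per culture nor the passage of the sequenced cells. The deposited table gives the libraries differing codes that the sources do not define. With 1 library per population no difference has a replicate check and no p-value is given, and population, age, isolation and any difference in passage cannot be told apart.

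IGF1 and IGF2 are small secreted hormones that resemble insulin and drive growth and survival through the tyrosine kinase receptor IGF1R and, for IGF2, through the insulin receptor. IGF2R, the cation-independent mannose 6-phosphate receptor, carries IGF2 to the lysosome and does not signal in this way. The IGF binding proteins (IGFBPs) hold the ligands outside the cell, and proteases release them. In the gut, mesenchymal cells are a known local source of IGFs and of several binding proteins for the epithelium above them.

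The libraries held 50674472 (supportive) and 49615497 (non-supportive) reads on genes. Levels are given as RPKM, the reads of a gene scaled by its exon length and by the size of the library. Intervals are 95% exact intervals of the reads, cover counting error only and compare these libraries, not the populations. Of 5 myofibroblast transcripts, Acta2 stood at an RPKM of 908 in supportive against 1410.1 in non-supportive ISEMFs and Vim at 325 against 407, and Des (0.575 against 3.40) and Myh11 (26.3 against 108) were at least 2-fold lower in supportive ISEMFs. Of the reads on genes, 14.6% and 7.85% came from mitochondrially encoded genes. The study's methods describe the length behind each RPKM as the union of all exons. For 9 of the 10 IGF genes the deposited length was longer than the merged exons of GENCODE vM1, which is on the same genome build, by up to 2.38 times for Igf2 and 2.003 times for Igf1. For 5 of the 10 it equalled the sum of the distinct exon records of the gene, overlaps counted repeatedly. This leaves the ratio between the libraries as it is but lowers the level of some genes against others, so levels with the merged exons are given where the order depends on it.

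Most of the IGF system was detected in both populations, and it differed mainly in the binding proteins. A gene was compared at a 2-fold threshold when its RPKM was at least 1 in at least 1 library, on the log2 scale, as supportive over non-supportive after adding 0.1 to each RPKM. Fold values and their intervals are ratios of RPKM without this addition. Of the 10 genes, 9 met this minimum. Igf1, Igfbp2, Igfbp4, Igfbp5 and Igfbp7 (5 genes) were at least 2-fold higher in supportive ISEMFs, Igfbp3 and Igfbp6 (2 genes) at least 2-fold lower, and the receptors Igf1r and Igf2r lay within 2-fold. Among all 10086 genes that met the minimum, 9.01% were at least 2-fold higher and 9.27% at least 2-fold lower. The median absolute log2 ratio was 1.45 over the 9 genes and 0.42 over all 10086. Of the 9, Igfbp2, Igfbp3, Igfbp5 and Igfbp6 reached an RPKM of 1 in only 1 of the libraries, so for these the minimum itself favours a difference. The other 5 reached it in both, and 3 of them (Igf1, Igfbp4 and Igfbp7) were at least 2-fold higher in supportive ISEMFs.

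**Figure D1:**
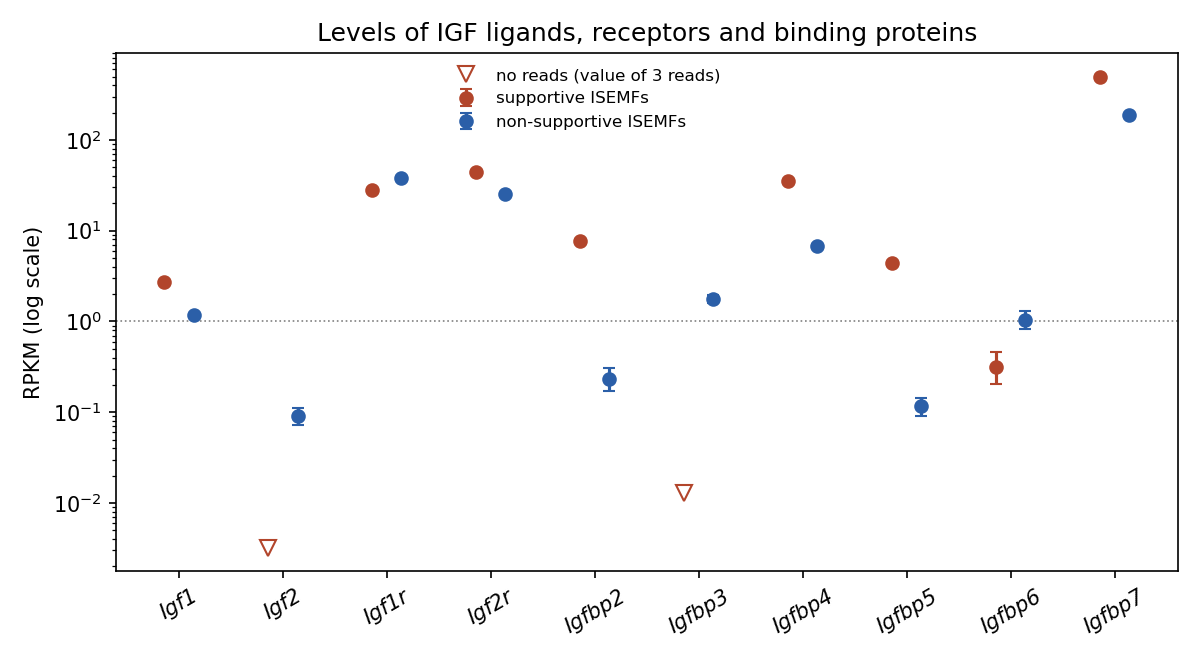
RPKM on a log scale of each of the 10 IGF genes in the supportive (red) and non-supportive (blue) library, 1 library each, with bars for the 95% exact Poisson interval of the reads. Open triangles mark the value of 3 reads for genes without reads, Igf2 and Igfbp3 in supportive ISEMFs, and the dotted line is the minimum of 1. Igfbp7 is the highest gene in both libraries, at 496 and 188.8.

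In supportive ISEMFs the order of RPKM from the top was Igfbp7, Igf2r, Igfbp4, Igf1r, Igfbp2, Igfbp5, Igf1 and Igfbp6, with no overlap between the counting intervals of neighbours, and Igf2 and Igfbp3 had no reads. In non-supportive ISEMFs it was Igfbp7, Igf1r, Igf2r, Igfbp4, Igfbp3, Igf1, Igfbp6, Igfbp2, Igfbp5 and Igf2. There the intervals of Igf1 and Igfbp6 overlapped, as did those of Igfbp5 and Igf2. With merged exons as the length, Igfbp4 (53.0) stood above Igf2r (45.8) in supportive ISEMFs. In the non-supportive library, Igf1 (2.33) then stood above Igfbp3 (1.83) and Igf2 (0.215) above Igfbp5 (0.182).

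The ligand expressed in both populations was Igf1. The gene lies on the plus strand of mm9 at chr10:87321010-87399792 with 8 exon blocks. Igf1 had 3875 supportive and 1606 non-supportive reads, for RPKM values of 2.73 and 1.16. This made it 2.34-fold higher in supportive ISEMFs (interval, 2.21 to 2.49), a log2 ratio of 1.16, and 7.48% of all compared genes had a ratio at least as high. With the deposited length, Igf1 ranked 5964 in supportive and 8099 in non-supportive ISEMFs among 22379 protein-coding genes, a low to moderate place in both. With merged exons its RPKM was 5.47 and 2.33, and its rank was not recomputed. In bulk RNA a lower level can come from fewer cells that express a gene or from less RNA per cell, and these cannot be told apart. With a pseudocount of 1 in place of 0.1 its log2 ratio was 0.79, under 2-fold.

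Igf2, the fetal growth factor expressed from the paternal allele, was close to absent. The gene lies on the minus strand at chr7:149836673-149852721. It had no supportive and 82 non-supportive reads, the latter an RPKM of 0.0901, and met the minimum of 1 in neither library. A gene without reads was set to the value of 3 reads, here an RPKM of 0.00320, and against this floor Igf2 stood 28.1-fold lower in supportive cells. The exact 95% interval of its ratio, which includes the counting error of both libraries, began at 22.4-fold. The imprinted noncoding RNA H19, which lies beside Igf2, was low in the same order, with 22 and 153 reads and an RPKM of 0.0631 and 0.452. The antisense gene Igf2as, which shares 98 exonic bases with Igf2, had 0 reads and 1 read. Ins2, the insulin gene upstream of Igf2, had none in either library.

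Igf1r and Igf2r differed less than the ligands, and in opposite directions. Igf1r, the signaling receptor, lies on the plus strand at chr7:75097713-75371484 with 22 exon blocks. Its reads numbered 9864 in supportive and 12930 in non-supportive ISEMFs, and its RPKM of 28.2 against 38.02 was 1.35-fold lower (interval, 1.31 to 1.38). Igf2r, the scavenging receptor, lies on the minus strand at chr17:12875272-12962530 with 50 exon blocks. Its reads numbered 30923 and 17208, and its RPKM of 44.4 against 25.4 was 1.75-fold higher in supportive ISEMFs (interval, 1.71 to 1.78).

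The more abundant receptor was thus Igf2r in one population and Igf1r in the other, with an RPKM ratio of Igf1r over Igf2r of 0.635 in supportive and 1.496 in non-supportive ISEMFs. Merged exons gave 0.673 and 1.58. The insulin receptor Insr, with which IGF1R can form hybrids, was at an RPKM of 6.16 and 9.21, which was 1.49-fold lower in supportive ISEMFs (interval, 1.44 to 1.55). The level of Igf1r over that of Insr was therefore close in both, 4.57 and 4.13, and over that of Igf1 it was 10.3 and 32.7, or 5.64 and 17.8 with merged exons. Airn, the noncoding RNA that runs antisense across 28354 bases of Igf2r, had 344 reads in supportive and 120 in non-supportive ISEMFs. Airn shares no exonic bases with Igf2r. The library kit does not mark the strand of a read.

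**Figure D2:**
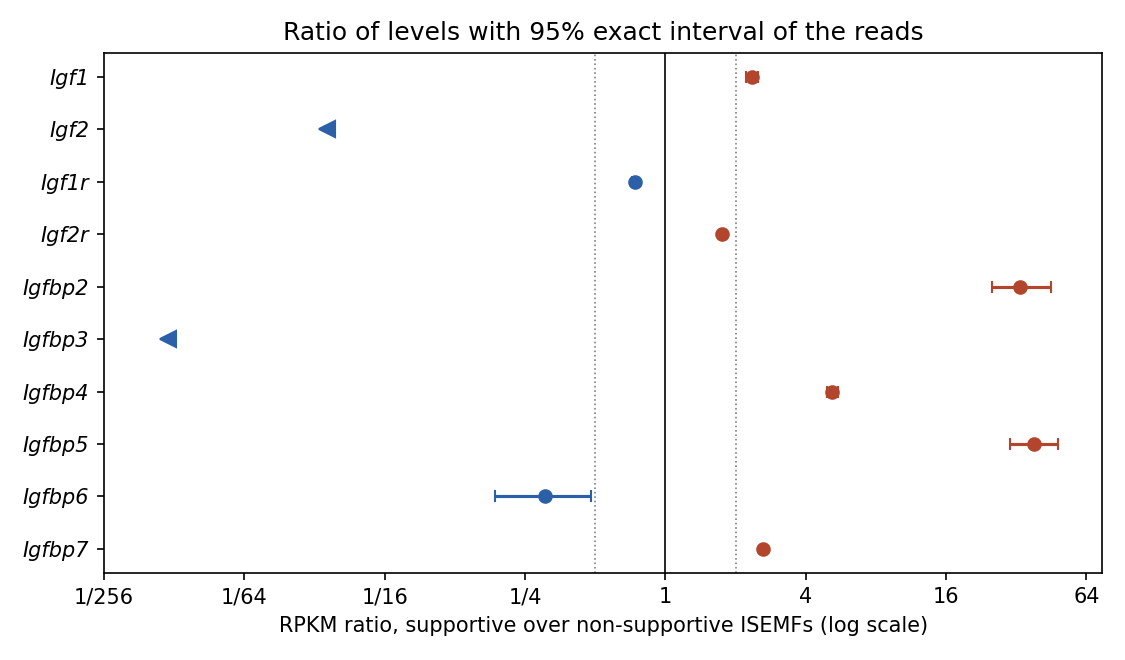
Ratio of RPKM in supportive over non-supportive ISEMFs for the 10 IGF genes on a log scale, with bars for the 95% exact interval of the reads in 1 library each. Triangles are ratios at the floor of 3 reads for genes without reads in supportive ISEMFs (Igf2, 28.1-fold lower, and Igfbp3, 137-fold lower), and the dotted lines mark 2-fold. The exact 95% intervals of these 2 ratios began lower, at 22.4-fold and 111-fold. Igfbp2 and Igfbp5 stand apart at 33.3 and 37.9, over a non-supportive RPKM of only 0.231 and 0.116.

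The binding proteins gave the widest range of ratios. Igfbp2 and Igfbp5, which face each other on chromosome 1, were the most different of the genes higher in supportive ISEMFs. Igfbp4 followed at an intermediate ratio, and Igfbp3 was not detected in supportive cells. The bases before the RefSeq start sites of these 4 genes are shown because, of the 9 IGF genes that met the minimum, these had the largest log2 ratios in either direction. They are read 5′ to 3′ on the strand of the gene, with the build of the files (mm9), and bases inside the annotated gene are left out. Capitals mark exact matches on either strand to TATAAA (the TATA box), to GGGCGG (the GC box) or to CACGTG (the E-box).
Igfbp2, chr1:72870804-72871053, plus strand: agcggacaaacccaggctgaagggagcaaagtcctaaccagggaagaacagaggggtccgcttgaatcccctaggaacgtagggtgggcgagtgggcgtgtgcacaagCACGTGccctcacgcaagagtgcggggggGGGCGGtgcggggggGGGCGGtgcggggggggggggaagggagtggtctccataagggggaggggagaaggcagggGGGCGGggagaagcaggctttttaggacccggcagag
Igfbp5, chr1:72921459-72921689, minus strand: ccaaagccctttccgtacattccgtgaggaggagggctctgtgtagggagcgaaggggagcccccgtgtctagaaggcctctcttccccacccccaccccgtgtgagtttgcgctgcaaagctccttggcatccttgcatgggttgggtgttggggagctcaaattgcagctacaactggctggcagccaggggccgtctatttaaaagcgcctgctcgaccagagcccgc
Igfbp4, chr11:98902308-98902557, plus strand: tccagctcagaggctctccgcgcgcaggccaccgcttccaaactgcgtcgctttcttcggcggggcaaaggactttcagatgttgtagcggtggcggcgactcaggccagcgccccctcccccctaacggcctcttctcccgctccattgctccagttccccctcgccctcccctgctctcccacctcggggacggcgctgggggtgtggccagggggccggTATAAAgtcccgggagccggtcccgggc
Igfbp3, chr11:7113927-7114176, minus strand: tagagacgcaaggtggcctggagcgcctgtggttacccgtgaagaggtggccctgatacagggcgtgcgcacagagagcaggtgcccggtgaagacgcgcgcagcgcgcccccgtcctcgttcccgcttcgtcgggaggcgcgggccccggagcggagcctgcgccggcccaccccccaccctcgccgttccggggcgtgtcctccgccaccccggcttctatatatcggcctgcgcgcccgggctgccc

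In these windows Igfbp2 held 3 matches to the GC box and 1 to the E-box, and Igfbp4 held a TATA box that began 28 bases before the start site. Igfbp5 and Igfbp3 held none of the 3 motifs in these letters. The GC content of the 250 bases was 67.2% for Igfbp2, 58.8% for Igfbp5, 69.2% for Igfbp4 and 73.2% for Igfbp3, against a median of 52.4% over all 32851 RefSeq windows. Of all windows 12.4% held the TATA box, 32.7% the GC box and 6.02% the E-box. Over the most upstream window of each of the 10 IGF genes these were 2, 4 and 2. The forkhead motif TGTTTAC and the AP-1 motif TGACTCA were in 0 of the 10, and in 3.17% and 4.46% of all windows. The motifs are descriptions of the letters, and binding was not measured.

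Igfbp2 is a binding protein of fetal tissues with an integrin-binding motif. It lies on the plus strand at chr1:72871077-72899048 with 5 exon blocks. Igfbp2 gave 1747 supportive reads, an RPKM of 7.68, and 51 non-supportive reads, an RPKM of 0.231. This was 33.3-fold higher in supportive ISEMFs (interval, 25.2 to 44.9), and only 43 of the 10086 compared genes, 0.426%, had a log2 ratio of at least its 4.56.

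Igfbp5, a binding protein that attaches to the extracellular matrix, lies on the minus strand at chr1:72904506-72921458 with 4 exon blocks. The end of Igfbp2 and the end of Igfbp5 are separated by 5457 bases. Igfbp5 gave 2967 supportive reads, an RPKM of 4.39, against 76 non-supportive reads, an RPKM of 0.116, which was 37.9-fold higher in supportive ISEMFs (interval, 30.2 to 48.3). The intervals of Igfbp2 and Igfbp5 overlapped, so counting error does not separate the ratios of these neighbours. In rank among protein-coding genes, Igfbp2 was at 3005 in supportive and 11047 in non-supportive ISEMFs, and Igfbp5 at 4564 and 11953.

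Igfbp4, an inhibitor of IGF action until it is cleaved, lies on the plus strand at chr11:98902558-98913969. With 8950 supportive and 1675 non-supportive reads, its RPKM was 35.01 and 6.74. It was 5.19-fold higher in supportive ISEMFs (interval, 4.93 to 5.47), and 2.37% of compared genes had a ratio at least as high. Unlike Igfbp2 and Igfbp5, it was well expressed in both populations, at rank 569 and 3389.

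Igfbp7 encodes a secreted protein that shares the amino-terminal domain of the family and binds IGFs only weakly. It lies on the minus strand at chr5:77778265-77837070. With 61438 supportive and 22754 non-supportive reads, its RPKM was 496 and 188.8, 2.62-fold higher in the former (interval, 2.58 to 2.66). It was among the most abundant transcripts of both, at rank 18 and 77. Its exons share 85 bases with those of Polr2b on the other strand, and the methods exclude reads that do not map to 1 gene alone.

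The remaining binding proteins were lower in supportive ISEMFs, and both were low in the non-supportive library as well. Igfbp3, the main carrier of IGFs in blood, lies on the minus strand at chr11:7106089-7113926. It had no reads in supportive ISEMFs, for a floor of 3 reads at an RPKM of 0.0128, and 398 non-supportive reads, an RPKM of 1.75. Against this floor supportive ISEMFs held 137-fold less, and the exact 95% interval of the ratio began at 111-fold. Igfbp1, which lies 3539 bases from Igfbp3, had no reads in either library, and Adcy1 on the other side of Igfbp1 was higher in supportive ISEMFs, with 633 reads against 102.

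Igfbp6, which prefers IGF2 over IGF1, lies on the plus strand at chr15:101974793-101979942. Its 25 supportive and 80 non-supportive reads gave RPKM values of 0.315 and 1.04. It was 3.29-fold lower in supportive ISEMFs with a wide interval of 2.08 to 5.39. Its level was barely above the minimum of 1, and with a pseudocount of 1 its log2 ratio was -0.63, under 2-fold. Igf2, Igfbp3 and Igfbp6 thus rested on 80 to 398 reads in the non-supportive library.

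Summed over Igfbp2 to Igfbp7, binding-protein RPKM was 543 in supportive and 198.7 in non-supportive ISEMFs, 2.73-fold higher in the former. Igfbp7 made 91.3% of the sum in supportive and 95.03% in non-supportive ISEMFs. Without Igfbp7 the sums were 47.4 and 9.88, 4.80-fold higher in supportive ISEMFs. The shares of Igfbp4 were 6.45% and 3.39%, those of Igfbp2 were 1.41% and 0.116%, and those of Igfbp5 were 0.808% and 0.0582%. Igfbp3 made 0.882% and Igfbp6 0.521% of the sum in non-supportive ISEMFs, and 0% and 0.0579% in supportive ISEMFs. After Igfbp7 and Igfbp4, the next binding proteins were therefore Igfbp2 and Igfbp5 in one population and Igfbp3 and Igfbp6 in the other. By comparison, the ligands summed to an RPKM of 2.73 and 1.25, mostly Igf1. With merged exons Igf1 alone was at 5.47 and 2.33, beside binding-protein sums of 782 and 283.8.

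**Figure D3:**
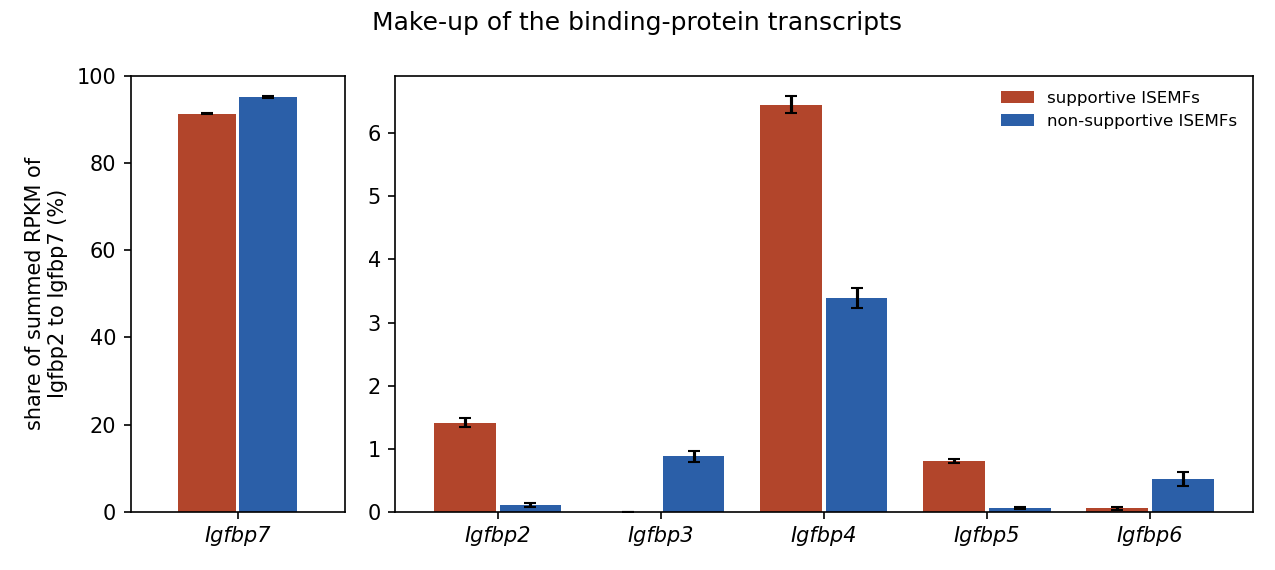
Share of each binding protein in the summed RPKM of Igfbp2 to Igfbp7 in supportive (red) and non-supportive (blue) ISEMFs, in percent, 1 library each, with bars for the 95% interval of counting error. The left panel has its own scale for Igfbp7, at 91.3% and 95.03%, and in the right panel Igfbp2, Igfbp4 and Igfbp5 have the larger share in supportive ISEMFs and Igfbp3 and Igfbp6 in non-supportive ISEMFs.

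The enzymes that release IGFs from the binding proteins, and their inhibitors, also differed. Pappa, the metalloprotease that cleaves IGFBP4, gave 43617 supportive and 10775 non-supportive reads, and its RPKM of 54.9 against 13.96 was 3.93-fold higher in supportive ISEMFs (interval, 3.85 to 4.02). Its relative Pappa2, which cleaves IGFBP5, was below the minimum at an RPKM of 0.413 and 0.0363. Stc1 and Stc2 encode stanniocalcins, which inhibit these proteases. Stc1 was 65.6-fold lower in supportive ISEMFs (interval, 38.9 to 120.5), with 14 reads against 893 and an RPKM of 0.0467 against 3.06. Stc2, below the minimum in both, had 48 and 352 reads and an RPKM of 0.116 and 0.877. Adam12, a protease of IGFBP3 and IGFBP5, was 3.06-fold lower in supportive ISEMFs, at an RPKM of 1.85 against 5.66. Htra1, a protease of IGFBP5, was at 33.6 and 65.7 and just within 2-fold, with a log2 ratio of -0.96. Of the 6 genes in this list, 4 met the minimum, with 1 higher, 2 lower and a median log2 ratio of -1.26, against a median of -0.07 over all compared genes. Of all compared genes 9.01% were higher and 9.27% lower. Stc1 reached the minimum only in the non-supportive library, so for it the minimum itself favours a difference.

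Downstream of the receptors few genes passed 2-fold, as among all compared genes, of which 8242 of 10086 lay within it. Of 11 adaptor genes, 9 met the minimum, 0 were 2-fold higher, and only Grb14, an inhibitor of the insulin receptor, was 2-fold lower, at an RPKM of 0.544 against 1.70. Grb14 reached the minimum only in the non-supportive library, so for it the minimum itself favours a difference. Irs1, the main docking protein of IGF1R, was at 1.57 and 1.83, and Grb10, an imprinted inhibitor of insulin and IGF receptors, was the highest of the list at 72.9 and 64.6. Of 20 genes of the PI3K, Akt and mTOR branch, 17 met the minimum and 15 lay within 2-fold. The exceptions were Foxo1, a transcription factor that Akt holds out of the nucleus, which was 4.19-fold higher in supportive ISEMFs at an RPKM of 13.5 against 3.23, and Pik3cb, a catalytic subunit of PI3K, which was 2.47-fold lower at 2.05 against 5.07. Mtor, the kinase at the end of this branch, was at 3.41 and 3.70.

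Among genes tied to the Igf2 messenger, 4 of 7 met the minimum and 2 were 2-fold lower in supportive ISEMFs, against 9.27% of all compared genes. These were Igf2bp1, which encodes an RNA-binding protein named for Igf2 mRNA, at an RPKM of 1.33 against 3.79, and Hmga2, a chromatin factor that regulates Igf2bp2, at 12.7 against 28.6. Igf2bp2 and Igf2bp3 were within 2-fold, at 4.999 against 6.73 and 4.83 against 6.03. Of 6 receptors and partners at the cell surface or for mannose 6-phosphate, 5 met the minimum. Lrp1, an endocytic receptor that binds IGFBP3, was 2.41-fold higher in supportive ISEMFs, at 38.3 against 15.8. Itga5, a subunit of the fibronectin receptor, was 3.28-fold lower, at 14.4 against 47.4. M6pr, the small mannose 6-phosphate receptor, was at 20.6 and 17.9 and did not follow the 1.75-fold difference of Igf2r. Of the other ligands, receptors and binding proteins of the family, only Insr and Insl6 met the minimum. Insl6, a relaxin-like gene, had 136 reads against 36 and was 3.67-fold higher in supportive ISEMFs, and 6 of the 10 genes in this list had no reads in either library. Over all 6 pathway lists, 41 of 60 genes met the minimum, of which 4 were 2-fold higher, 7 were 2-fold lower and 30 were within 2-fold. Among those past 2-fold, Insl6 reached the minimum only in the supportive library, and Stc1 and Grb14 only in the non-supportive library. For these the minimum itself favours a difference. Among all compared genes 9.01% were higher and 9.27% lower. The median log2 ratio of the 41 was -0.14.

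**Figure D4:**
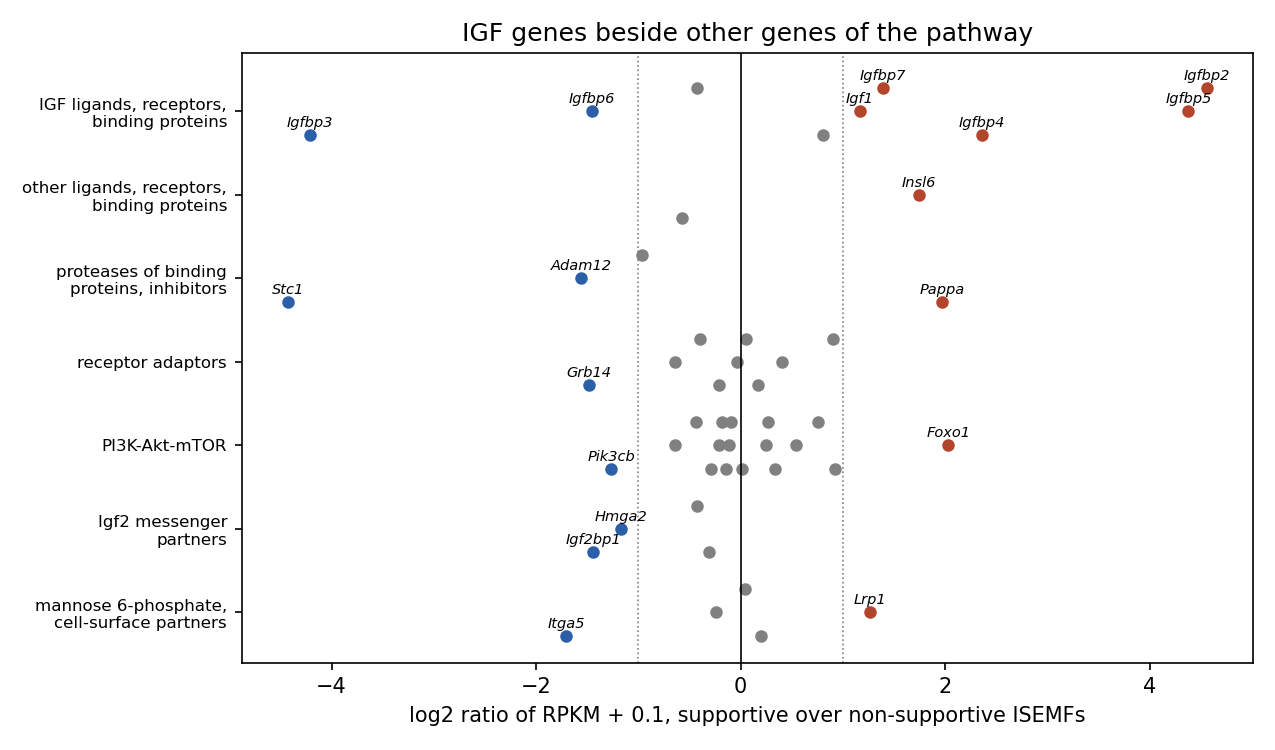
Log2 ratio of RPKM + 0.1 in supportive over non-supportive ISEMFs for the IGF genes (top row) and the 6 lists of other pathway genes, 1 point per gene that met the minimum, from 1 library each. Named points are at least 2-fold higher (red) or lower (blue), grey points lie within 2-fold, and the vertical offset within a row has no meaning. Of the 17 genes of the PI3K, Akt and mTOR branch 15 are grey, against 2 of the 9 IGF genes. Among all 10086 compared genes 8242 lie within 2-fold. Igfbp2, Igfbp3, Igfbp5 and Igfbp6 met the minimum in only 1 library, which itself favours a difference.

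Markers of macrophages moved with the comparison. All 12 of the list had a lower RPKM in supportive ISEMFs, 9 met the minimum and all 9 were at least 2-fold lower, and 7 had no reads there. Among all compared genes 9.27% were at least 2-fold lower. Of the 9, only Lyz2 reached an RPKM of 1 in both libraries, so for the others the minimum itself favours a difference. The summed RPKM of all 12 markers was 6.95 in supportive and 129.9 in non-supportive ISEMFs, where Lyz2 made 72.7 and Tyrobp 29.97. Igf2, Igfbp3, Igfbp6 and Stc1 were lower in supportive ISEMFs as these markers were, and Igf1, Igfbp2, Igfbp4, Igfbp5 and Igfbp7 were higher there. The part of macrophages in these differences was not tested. Endothelial markers were near 0 in both libraries, with a summed RPKM of 0.0301 and 0.241 over 6 genes, and of the 4 mesothelial markers none met the minimum. Of the epithelial markers Epcam had 0 and 5 reads, Cdx2 had none and Vil1 had 7 and 8. Krt20 was lower in supportive ISEMFs, at an RPKM of 0.0799 against 3.13, whereas Cdh1 had 159 reads there against 18 and Muc2 had 27 against 3. Of the markers of neurons and glia, S100b was higher in supportive ISEMFs, at 6.69 against 0.116, while Sox10 had no reads. Of those of interstitial cells of Cajal, Kit had 0 and 6 reads, Ano1 was at 0.0225 and 1.94, and Etv1 was at 0.311 and 0.221.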

How the data were processed

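RNA sequencing of 1 supportive and 1 non-supportive ISEMF library was analysed, grouped by the sample titles. The authors aligned single-end reads to mm9 with TopHat (TopHat2 2.0.4 in the submitters' processing notes) and Ensembl genes, kept unique hits and counted reads per gene with HTSeq 0.5.4p3. The deposited counts are not normalized, and the deposited RPKM are those counts divided by gene length and by library sizes of 71463423 and 69449374 reads. The deposited log2 ratio and DESeq p-values, and a shorter table of Wnt pathway genes, were not used. The Ensembl release is not given in the sources used here.

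Log2 ratios used RPKM plus 0.1, and genes at or above an RPKM of 1 in either library were compared at 2-fold. With 1 library each, no test was run. Ratio intervals are exact Clopper-Pearson intervals of the share of reads and level intervals are exact Poisson intervals, both at 95%. Genes without reads were set to a floor of 3 reads per library to give a fold. The steps were tested on simulated data. Coordinates and merged exon lengths come from GENCODE vM1. RefSeq promoter windows (GRCm38.p6) matched all 10 genes, and the 4 shown were each found at 1 place around the gene in mm9.

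The members and lists were chosen with earlier results of these data known. All members are named, with, from each list, genes past 2-fold and defining receptors, enzymes or markers, and some of the genes within 60 kb of a member. Alternatives were other pseudocounts (1 and 0.01), an RPKM minimum of 5 or none, TMM factors (edgeR 4.0.16), median-of-ratios size factors (DESeq2 1.42.0), a library size without mitochondrially encoded genes, 1.5-fold and 4-fold thresholds, protein-coding genes alone and, chosen after seeing the data, merged exon length and the counts of other pathway genes. Python 3.11.15, scipy 1.17.1, pandas 2.3.3 and R 4.3.3 were used.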

Additional observations from a re-analysis of the deposited data

How the results depend on the processing

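No paired analysis was possible because each population has 1 library, and no library could be left out. The depth limits Igf2, Igfbp3 and Igfbp6 most, which had 0, 0 and 25 reads in the supportive library. Of 60 log2 ratios of single IGF genes under 6 settings, 37 stayed within the counting interval of the gene, 23 moved beyond it and 0 changed direction. Counts are given here as genes higher and lower in supportive ISEMFs. A pseudocount of 0.01, TMM or median-of-ratios factors, no minimum, protein-coding genes alone and merged exons, the last chosen after seeing the data, left 5 and 2 IGF genes. All genes numbered 909 and 935 in the main setting and 957 and 976 with a pseudocount of 0.01. They numbered 980 and 858 with TMM and 958 and 881 with median-of-ratios factors. Protein-coding genes alone numbered 843 and 818, and all genes with merged exons 984 and 980. With a pseudocount of 1, the IGF genes numbered 4 and 1 and all genes 578 and 621, since the log2 ratios of Igf1 and Igfbp6 then fell under 2-fold, at 0.79 and -0.63. With a minimum RPKM of 5 they were 3 and 0, with 412 and 466 of all genes and 3 and 4 of the other pathway genes. With no minimum, all genes numbered 1775 and 1885. At 1.5-fold the counts were 6 and 2 of the IGF genes, 1657 and 1981 of all genes, and 7 and 10 of the other pathway genes. At 4-fold they were 3 and 1 of the IGF genes, 327 and 332 of all genes and 1 and 1 of the other pathway genes. A library size without mitochondrially encoded genes moved the median log2 ratio of all compared genes by 0.12 and left 5 IGF genes higher and 1 lower, because Igfbp6 fell below the minimum. With that library size all genes numbered 1070 and 776. The log2 ratio of the summed binding proteins, 1.45, was 1.51 with TMM factors, 1.49 with median-of-ratios size factors, 1.57 with that library size and 2.26 without Igfbp7. The share of Igfbp7 was 81.8% and 90.9% of the reads without division by length, and 90.6% in supportive ISEMFs with merged exons.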

Other observations

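Of 6 genes that mark dividing cells, Ccnb1 was below the minimum. The other 5 lay within 2-fold, as did 8242 of all 10086 compared genes, and had a median log2 ratio of 0.25. Mki67 was at an RPKM of 45.5 in supportive and 36.7 in non-supportive ISEMFs, and Top2a, which lies 17054 bases from Igfbp4, at 24.3 and 18.3. Birc5 ran the other way, at 6.73 and 11.1.

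The neighbours of the IGF genes did not all share their direction. Beside Igfbp6, which was lower in supportive ISEMFs, Csad was at an RPKM of 8.25 against 2.75 and Tenc1 at 2.74 against 0.862, both higher in supportive ISEMFs. Eif4b was also higher there, at 62.0 against 38.2. Spryd3, nearer to Igfbp6, was lower there, at 2.02 against 2.77, and Soat2 had 11 and 14 reads. Tns4, beside Igfbp4, had 63 reads against 2 and so shared the direction of Igfbp4, at an RPKM of 0.159 and 0.00518, below the minimum. These genes are examples from those within 60 kb of an IGF gene, and the part of position was not tested.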
